A study of Homo sapiens with 2 samples.

Results

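Interferon-stimulated and RNA-sensing genes are the 50 genes followed here, taken by gene symbol from a table of 25343 gene rows, and each of the 50 was found there. They comprise receptors for double-stranded RNA, the transcription factors behind the interferon response and the antiviral effectors these switch on. Gene expression was measured by RNA-seq, with 50-base single reads, in 2 lines of C4-2B, a castration-resistant human prostate cancer line that descends from LNCaP through C4-2. C4-2B Con is the enzalutamide-sensitive line, kept in serum-containing medium with the solvent DMSO, and C4-2B ENZR is the resistant line, kept in parallel in medium with 20 µM enzalutamide, an antiandrogen that blocks the androgen receptor. Each line gave 1 library, and the sample titles of both carry the suffix shC, whose meaning no label gives. Whether either line is a single clone is not given. Resistance and the presence of the drug go together in the ENZR line, so their parts in a difference cannot be told apart.

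Cells detect foreign or misplaced RNA through helicases in the cytosol and receptors in endosomes. These sensors signal through adaptor proteins to kinases that activate interferon regulatory factors, and the secreted interferons then act through JAK kinases and a transcription factor complex that includes STAT2 and IRF9. That complex binds a DNA element, the interferon-stimulated response element (ISRE), in front of the genes it induces, which encode RNA-binding proteins, nucleases, ubiquitin-like modifiers and membrane proteins that restrict viruses.

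The deposited values are TMM-normalized CPM, read numbers scaled to a library of 1000000 reads, with a further factor (TMM) that aligns the libraries on the bulk of their genes. Whole reads could be recovered from them, 21024484 in Con and 23479051 in ENZR. With 1 library per line there is no replicate error and no test of the lines, and every difference below describes 2 libraries. A fold is the plain ratio of CPM values, and the counting interval printed with it is the exact 95% binomial interval (Clopper-Pearson) for the split of a gene's reads, which covers counting error only. Counts of genes past 2-fold use log2 ratios (ENZR over Con, 1 CPM added to each value), over genes whose mean of both libraries was at least 1 CPM. The prostate epithelial markers HOXB13 (442 and 337 CPM), KRT8 (268 and 340 CPM) and FOLH1 (712 and 994 CPM) were present in Con and ENZR, respectively. Of 12 leukocyte markers, 1 passed the expression filter, CD3E, MS4A1 and TYROBP had no read in either library, and the summed level of the list was 4.21 CPM in Con and 6.59 CPM in ENZR. The 3 markers of plasmacytoid dendritic cells, a professional source of interferon, summed to 0.343 CPM and 0.243 CPM. All 10 prostate markers passed, but their summed level was 4858 CPM in Con against 3005 CPM in ENZR, 7 of the 10 had a log2 ratio below 0, and the median was -0.49. The kallikrein genes KLK3 (1428 and 3.72 CPM, 384-fold lower) and KLK2 (72.2 and 17.4 CPM, 4.15-fold lower) were the 2 past 2-fold. The 6 fibroblast markers summed to 20.8 CPM in Con and 47.4 CPM in ENZR, with 2 past the filter, and the 4 endothelial markers to 10.7 and 5.22 CPM. Single markers among these lists differed, with 370 and 1098 reads for the collagen gene COL1A1 and 0 and 32 for lumican LUM. Lysozyme LYZ had 60 and 126 reads, HLA-DRA had 0 and 29, and the endothelial marker VWF had 182 and 72. COL1A2 had no read in either library, and the part of other cells in the results was not tested. Undoing the TMM scaling raises every ENZR over Con ratio 1.08-fold and moves the median log2 ratio of all genes from -0.01 to 0.10.

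Members were more often higher than lower in ENZR. Of the 50 members, 41 passed the expression filter, and 16 of these were at least 2-fold higher in ENZR, where the background over all 13803 genes that passed was 6.69%. Of the 41 members, 2, PARP10 and BST2, were at least 2-fold lower, where the background was 4.64%, and 23 lay between these limits. The median log2 ratio was 0.71 over the members and -0.01 over all genes. A library of bulk RNA does not show whether more cells expressed these genes or each cell held more of their RNA.

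The filter bears on these counts, because it uses the mean of both libraries. Of the 41 members, 34 had at least 1 CPM in each library, and 11 of these 34 were at least 2-fold higher in ENZR, where the background over the 13046 genes with such levels was 4.75%. Another 6 members passed through their ENZR value alone (TLR3, ISG20, OAS1, OASL, IFIT2 and SAMD9), and HERC5 passed through its Con value. The 9 members below the filter were OAS2, MX2, RSAD2, SAMD9L, EPSTI1, IFI16, IFI27, IFI44 and IFI44L, of which 5 had more reads in ENZR, 3 had more in Con and IFI44L had none in either.

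**Figure D1:**
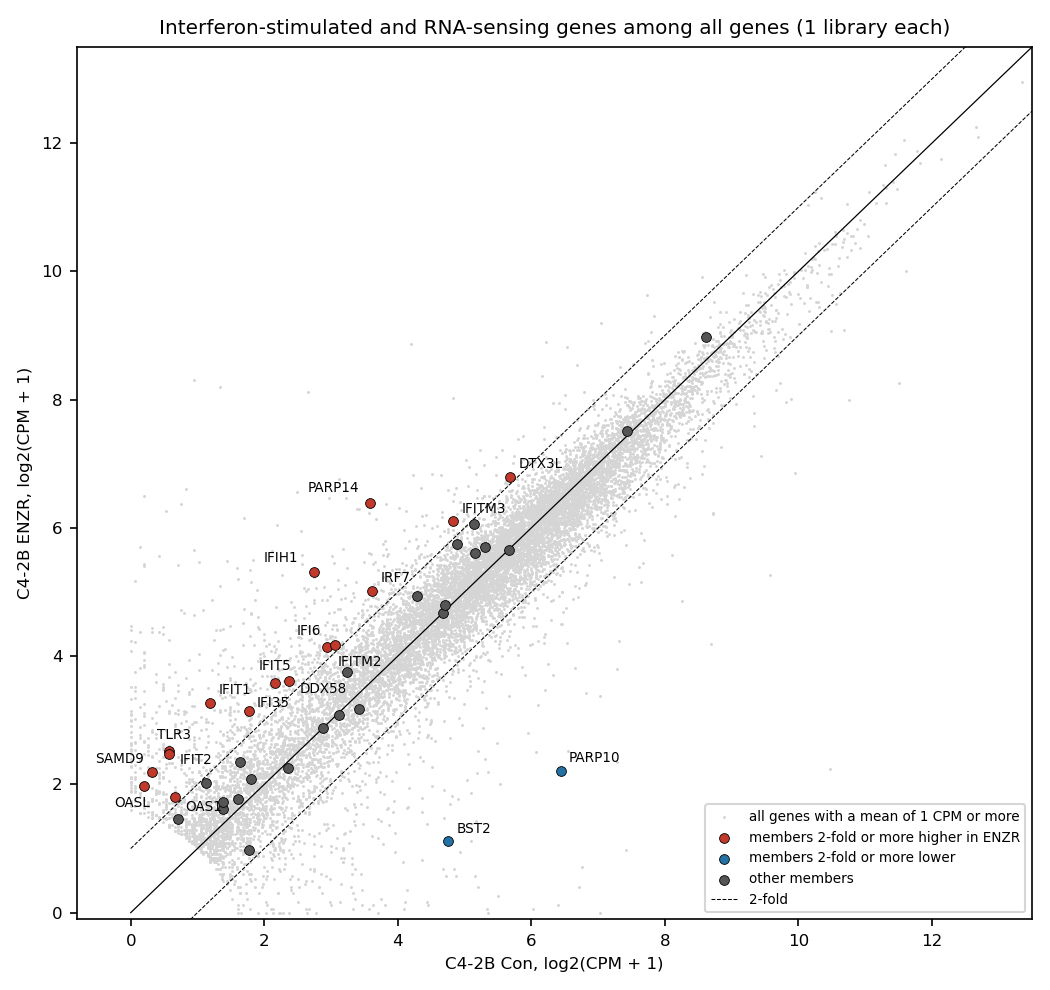
Each point is a gene, with its level in C4-2B Con on the horizontal axis and in C4-2B ENZR on the vertical axis, both as log2 of CPM plus 1, for 1 library each. Grey points are all genes with a mean of at least 1 CPM, the dashed lines mark 2-fold, and 16 members lie on or above the upper line while PARP10 and BST2 lie far below the lower one.

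Low levels scatter more between libraries, so the members were also read against genes of their own abundance. Among genes with a mean of 1 to 10 CPM, 9 of 21 members were at least 2-fold higher (background 14.1%) and 0 lower by as much (background 7.31%). These 9 include TLR3, OAS1, OASL, IFIT2 and SAMD9, which had under 1 CPM in Con and entered the band through their ENZR value alone. Between 10 and 100 CPM, 7 of 18 members were at least 2-fold higher, with a background of 4.79%. At 100 CPM or more there were 2 members, ADAR and MAVS, and neither reached 2-fold in either direction, where the background was 1.28% higher and 3.72% lower. Both lower members fell in the middle band, 2 of 18 with a background of 3.63%.

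**Figure D2:**
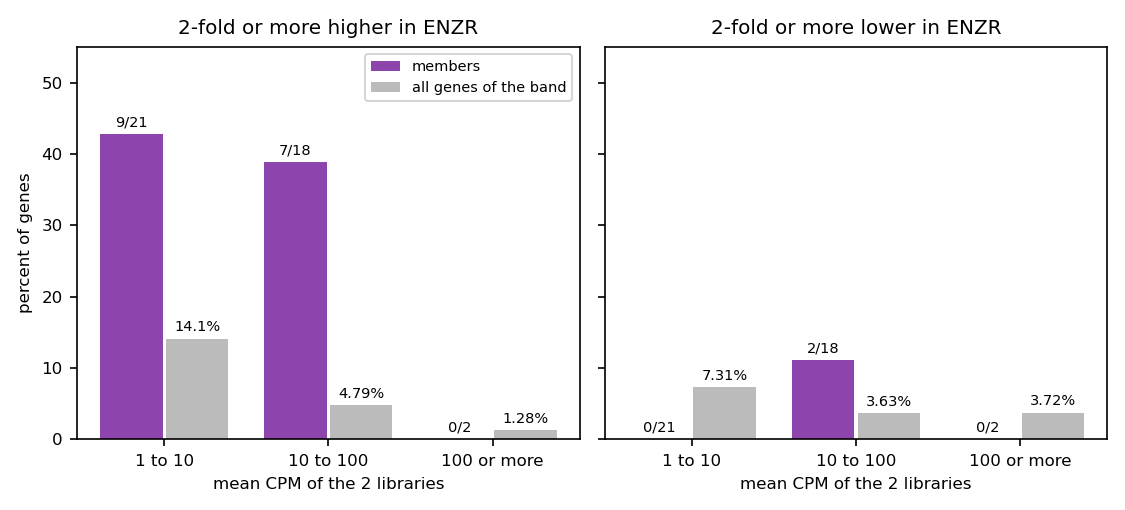
Bars give the percent of genes at least 2-fold higher (left) or lower (right) in ENZR, by mean CPM of the 2 libraries, for members (purple, with counts) and all genes of the same band (grey). In the bands of 1 to 10 and 10 to 100 CPM the members stand at 9 of 21 and 7 of 18 on the left, beside 14.1% and 4.79% of all genes. Some of the 9 entered their band through their ENZR value alone.

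The counting interval excluded a ratio of 1 for most members, as it did for most genes. It lay above 1 for 27 of the 41 members (background 34.6%) and below 1 for 3, PARP10, BST2 and HERC5 (background 36.6%). The remaining 11 members had intervals that held 1.

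**Figure D3:**
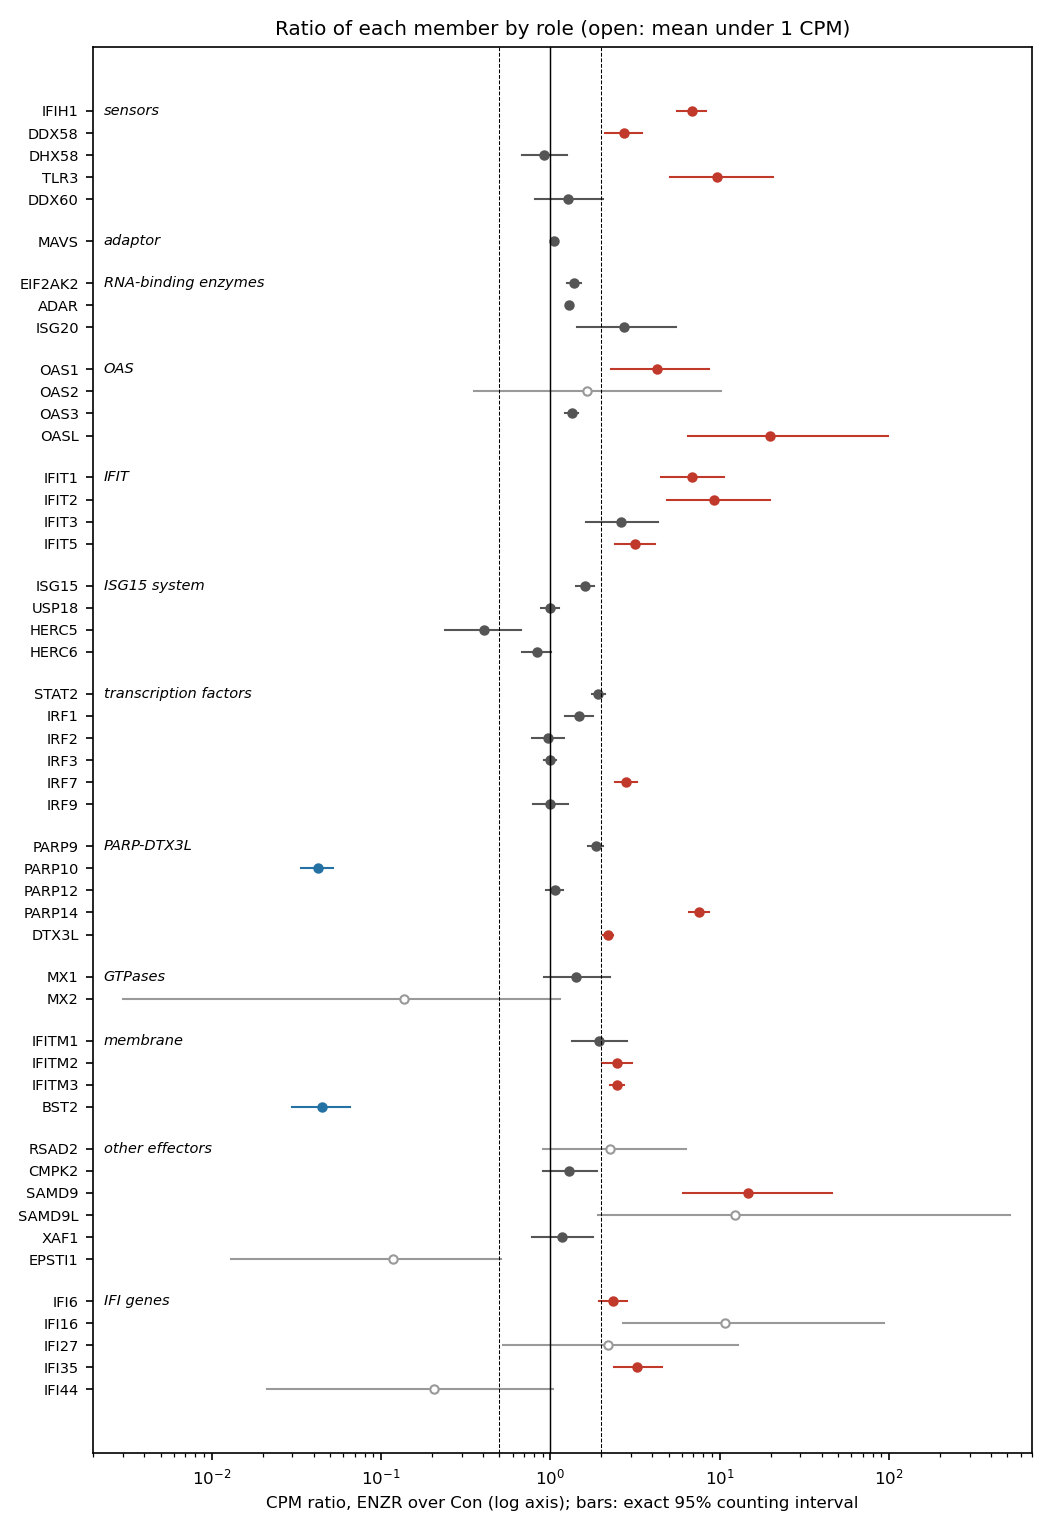
Points give the CPM ratio of ENZR over Con on a log axis and bars the exact 95% counting interval, for the 49 members with a read, grouped by role. Red and blue members passed 2-fold, open points have a mean under 1 CPM, and the wide bars of OASL, SAMD9 and SAMD9L reflect 5 reads or fewer in Con.

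The promoters of members were examined for the DNA element of the interferon response. RefSeq promoter sequences of build GRCh38.p14, from 250 bases before to 50 after an annotated start, were found for 39 of the 50 members. The ISRE core, which is GAAA followed by any 2 bases and a further GAAA, sought on both strands with overlapping matches counted, occurred in 26 of these 39 promoters (66.7%) and in 1195 of 27305 genes of the promoter table (4.38%). The GAS core TTCNNNGAA, the palindromic element bound by STAT dimers, occurred in 12 of 39 members (30.8%) and in 9.38% of all genes. A match is a description of the letters and does not show that a factor binds there. The following 6 promoters are shown because they pair higher members with members that were lower or little different: IFIH1 (chr2:162318685-162318934, minus strand), PARP14 (chr3:122680589-122680838, plus strand) and IFIT1 (chr10:89392373-89392622, plus strand) were higher in ENZR, ISG15 (chr1:1013247-1013496, plus strand) was 1.60-fold higher, and HERC5 (chr4:88456869-88457118, plus strand) and BST2 (chr19:17405631-17405880, minus strand) were lower. Each run holds the 250 bases before the start, 5′ to 3′ in the direction of the gene, and capitals mark ISRE cores, in which TTTC at the left end marks a core on the opposite strand.
IFIH1: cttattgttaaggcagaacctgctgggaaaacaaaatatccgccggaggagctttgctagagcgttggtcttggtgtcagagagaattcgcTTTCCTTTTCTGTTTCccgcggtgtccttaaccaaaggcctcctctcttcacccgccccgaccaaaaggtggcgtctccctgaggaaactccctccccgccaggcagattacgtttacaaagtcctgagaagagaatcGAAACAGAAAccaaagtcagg
PARP14: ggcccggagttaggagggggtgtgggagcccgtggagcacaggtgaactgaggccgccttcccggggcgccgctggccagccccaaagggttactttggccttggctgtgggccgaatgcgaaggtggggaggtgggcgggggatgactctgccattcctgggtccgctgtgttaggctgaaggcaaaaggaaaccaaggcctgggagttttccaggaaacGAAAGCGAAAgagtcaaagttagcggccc
IFIT1: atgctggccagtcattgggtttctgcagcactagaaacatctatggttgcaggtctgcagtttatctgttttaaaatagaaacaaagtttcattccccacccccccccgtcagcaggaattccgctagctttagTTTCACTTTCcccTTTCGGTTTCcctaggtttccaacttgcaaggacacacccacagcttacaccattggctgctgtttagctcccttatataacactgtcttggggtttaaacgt
ISG15: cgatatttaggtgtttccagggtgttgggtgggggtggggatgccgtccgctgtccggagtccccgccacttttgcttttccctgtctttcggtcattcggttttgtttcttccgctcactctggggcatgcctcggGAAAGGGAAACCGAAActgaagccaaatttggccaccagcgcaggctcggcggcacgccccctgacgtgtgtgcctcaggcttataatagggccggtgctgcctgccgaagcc
HERC5: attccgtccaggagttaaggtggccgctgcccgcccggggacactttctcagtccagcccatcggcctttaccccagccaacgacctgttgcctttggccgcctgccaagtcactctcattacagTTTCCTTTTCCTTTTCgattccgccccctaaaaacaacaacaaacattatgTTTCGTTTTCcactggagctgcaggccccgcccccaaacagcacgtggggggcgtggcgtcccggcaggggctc
BST2: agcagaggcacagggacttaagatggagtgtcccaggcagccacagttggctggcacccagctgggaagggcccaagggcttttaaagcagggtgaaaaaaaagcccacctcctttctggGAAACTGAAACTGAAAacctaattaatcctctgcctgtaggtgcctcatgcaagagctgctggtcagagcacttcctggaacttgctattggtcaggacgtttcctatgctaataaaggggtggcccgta

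IFIH1 and HERC5 each carry 3 matches to the core in these 250 bases, IFIT1, ISG15 and BST2 each carry 2, and PARP14 carries 1. In IFIH1, ISG15, HERC5 and BST2 a pair of matches overlaps and is seen as a single longer run of capitals. A core was thus present in the promoters of members on both sides: among members with a promoter sequence, 9 of 12 that were at least 2-fold higher held a core, as did 11 of 19 that lay between the limits, and BST2. IFI44L, which had no read in either library, also held 2 cores. The member matches lay at positions from -196 to 12 relative to a start, with a median of -90.5.

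**Figure D4:**
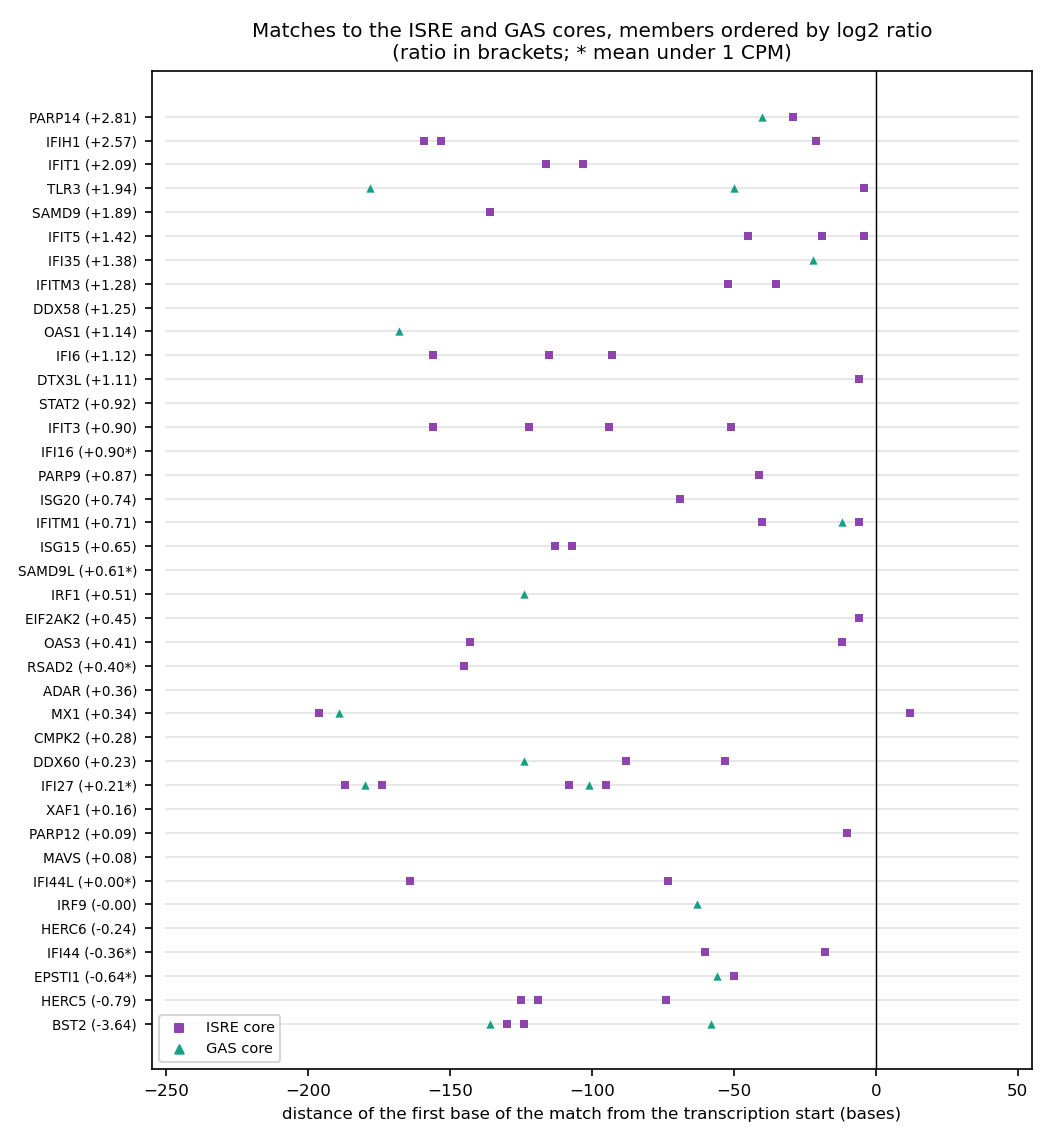
Each row is a member with a RefSeq promoter, ordered by its log2 ratio (in brackets), and symbols mark the distance of ISRE (squares) and GAS (triangles) core matches from the annotated starts, all starts of a gene being drawn on its row. Squares appear from PARP14 at the top to BST2 at the bottom, and among members past the filter DDX58, STAT2, ADAR, CMPK2, XAF1, MAVS and HERC6 have neither motif in the window.

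Of the 5 RNA sensors, IFIH1, DDX58 and TLR3 were at least 2-fold higher in ENZR, where the background over all genes was 6.69%. IFIH1 encodes MDA5, the receptor for long double-stranded RNA, and had 116 reads in Con (5.68 CPM) and 959 in ENZR (38.8 CPM), a fold of 6.82 with a counting interval of 5.62 to 8.35. DDX58 encodes RIG-I, which recognises the triphosphate end of viral RNA, and stood at 4.16 CPM and 11.3 CPM, 2.71-fold higher (2.12 to 3.50). TLR3, the endosomal receptor for double-stranded RNA, rested on 10 Con reads and 117 ENZR reads, a ratio of 9.66 (5.07 to 20.7). Of these sensors, only TLR3 was under 1 CPM in Con.

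DHX58 encodes LGP2, a helicase of the same family that lacks the signalling domain, and had 84 and 94 reads, a ratio of 0.924 (0.681 to 1.25). DDX60, a helicase linked to RIG-I signalling, had 33 and 51 reads (1.28, 0.807 to 2.04). MAVS, the mitochondrial adaptor that IFIH1 and DDX58 signal through, stood at 171 CPM and 181 CPM, a ratio of 1.06. The difference for MAVS is smaller than the 1.08-fold by which all ratios rise when the TMM scaling is undone.

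None of the 3 RNA-binding enzymes reached 2-fold on the log2 scale with 1 CPM added (6.69% higher and 4.64% lower over all genes). EIF2AK2 encodes PKR, the kinase that stops translation when it meets double-stranded RNA, and was 1.37-fold higher (34.8 and 47.8 CPM, interval 1.25 to 1.51). ADAR, which edits adenosines in double-stranded RNA and so keeps the cell's own RNA from being sensed, was 1.29-fold higher at 391 and 504 CPM (1.25 to 1.33). ISG20, an exonuclease, had 13 and 43 reads, a ratio of 2.73 (1.44 to 5.53) that the pseudocount brings to a log2 ratio of 0.74.

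The oligoadenylate synthetases make short 2′-5′ oligoadenylates, a messenger of the antiviral response, when they meet double-stranded RNA. OAS1 had 12 Con reads and 62 ENZR reads, a ratio of 4.26 (2.28 to 8.70). OAS3, the best covered of the family, had 784 and 1268 reads, or 38.4 and 51.3 CPM, and was 1.33-fold higher (1.22 to 1.46). OAS2, which lies beside OAS3 in the genome, had 3 and 6 reads, too few to place. OASL, a family member without synthetase activity, had 3 Con reads and 72 ENZR reads, a ratio of 19.8 (6.51 to 98.3).

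The IFIT proteins bind the ends of foreign RNA and block its translation. IFIT1 had 26 reads in Con and 215 in ENZR (6.83-fold, 4.53 to 10.7) and IFIT5 had 71 and 272 (3.16-fold, 2.43 to 4.17). IFIT2 stood at 0.490 CPM and 4.57 CPM, a ratio of 9.33. IFIT3 was the only one of the 4 short of 2-fold on the log2 scale, with 24 and 76 reads and a plain ratio of 2.61 (1.63 to 4.33). All 4 were higher in ENZR, where 6827 of all 13803 genes had a log2 ratio above 0, and all 4 had under 4 CPM in Con. Their gene spans overlap that of LIPA in the RefSeq annotation, and whether the counting used strand is not given in the sources used here.

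ISG15, a ubiquitin-like protein that is attached to other proteins, was found at 18.5 CPM (Con) and 29.7 CPM (ENZR), 1.60-fold higher (1.42 to 1.82). Genes of its attachment pathway went in different directions. HERC5, the main ISG15 ligase, had 49 reads in Con and 24 in ENZR, 2.47-fold lower (1.49 to 4.22), and its neighbour HERC6 had 197 and 198 reads, a ratio of 0.830 (0.678 to 1.02). USP18, the protease that removes ISG15 and dampens the interferon receptor, was at 24.5 and 24.4 CPM, a ratio of 0.995 (0.882 to 1.12). In contrast, the conjugating enzyme UBE2L6, from the list of other interferon-stimulated genes, had 8 Con reads and 480 ENZR reads, a ratio of 49.5 (24.9 to 115). UBA7, the activating enzyme of the same pathway, named after its values were seen, had 6 and 68 reads, a ratio of 9.35 (4.08 to 26.4). UBE2L6 and UBA7 had under 1 CPM in Con and passed the filter through their ENZR value alone. HERC5 passed through its Con value alone and did not reach 2-fold on the log2 scale with 1 CPM added.

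Among the 6 transcription factors, IRF7, the amplifier of type I interferon production, was the member past 2-fold (6.69% higher over all genes). Its level of 31.5 CPM in ENZR was 2.79-fold that of 11.3 CPM in Con (2.41 to 3.25). STAT2, a subunit of the interferon complex, was at 34.1 and 65.7 CPM, 1.92-fold higher (1.76 to 2.11). IRF1, an activator induced by interferon-gamma, was 1.47-fold higher (1.22 to 1.79). IRF9, the DNA-binding subunit of the complex, had 130 and 157 reads, a ratio of 0.997 (0.785 to 1.27). IRF3, which is activated by phosphorylation downstream of the sensors, was at 49.6 and 49.4 CPM (0.996, 0.915 to 1.08), and IRF2, a competitor of IRF1, had a ratio of 0.973 (0.782 to 1.21). The signs of the IRF2, IRF3, IRF9, USP18 and DHX58 log2 ratios flip to positive when the TMM scaling is undone, and IRF3 shares part of its span with BCL2L12.

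The ADP-ribosyltransferases of the list held both its highest and its lowest log2 ratio. PARP14, a mono-ADP-ribosyltransferase with macrodomains, had 225 reads in Con and 2054 in ENZR, or 11.0 and 83.1 CPM, 7.54-fold higher (6.56 to 8.69). PARP9 stood at 28.6 and 52.9 CPM (1.85-fold, 1.68 to 2.04), and DTX3L, the ubiquitin ligase with which the PARP9 protein forms a complex, at 50.4 and 110.2 CPM (2.19-fold, 2.04 to 2.35). PARP10, another mono-ADP-ribosyltransferase, went the other way, with 1754 reads in Con and 90 in ENZR, or 85.9 and 3.64 CPM, 23.6-fold lower (19.1 to 29.5). PARP12, a zinc finger member of the family, was at 25.1 and 26.7 CPM, a ratio of 1.06, with an interval that held 1.

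PARP9 and DTX3L lie head to head on chromosome 3, with overlapping spans, and 1 ISRE core serves as a match for both. It begins at position 122564332 of GRCh38.p14 and reads GAAACTGAAA in the direction of DTX3L and TTTCAGTTTC in that of PARP9. PARP14 lies near them, with PARP15 in between, a gene with no read in either library. Reads from the overlap of PARP9 and DTX3L cannot be assigned without strand. PARP10 in turn shares part of its span with GRINA and SPATC1.

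Among the membrane proteins, the IFITM genes were higher and BST2 was lower. IFITM3, which blocks fusion of enveloped viruses in endosomes, was found at 27.5 CPM (Con) and 68.1 CPM (ENZR), 2.47-fold higher (2.25 to 2.73). IFITM2 had 137 and 410 reads, with the same fold of 2.47 (2.03 to 3.02), and IFITM1, found mainly at the cell surface, had 43 and 101 reads, 1.94-fold higher (1.34 to 2.84). The 3 IFITM genes lie side by side and are close in sequence, so the split of reads among them is uncertain. BST2 encodes tetherin, which holds budding virus at the cell surface, and had 531 reads in Con and 29 in ENZR, 22.2-fold lower (15.3 to 33.5).

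The dynamin-like GTPases MX1 and MX2 are textbook markers of interferon exposure. MX1 passed the filter at a low level, with 33 and 57 reads, a ratio of 1.43 (0.913 to 2.26). MX2 was close to undetected, with 6 reads in Con and 1 in ENZR. RSAD2, which encodes viperin, had 7 and 19 reads, and its neighbour CMPK2, a mitochondrial nucleotide kinase, had 51 and 80, a ratio of 1.29, with an upper bound of 1.88. IFI44 had 8 and 2 reads, IFI27 had 3 and 8, and EPSTI1 had 14 and 2. The intervals of MX1, CMPK2, RSAD2, IFI27, IFI44 and MX2 held 1, so no difference was detected for them. Those of MX1 and CMPK2 ended at 2.26 and 1.88, whereas RSAD2, IFI27, IFI44 and MX2 had too few reads to place. The interval of EPSTI1, a ratio of Con over ENZR of 8.48, ran from 1.95 to 76.9.

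Other effectors were split. SAMD9, a growth-restricting antiviral factor, had 5 Con reads and 89 ENZR reads, a ratio of 14.7 (6.07 to 46.4), and its neighbour and paralog SAMD9L had 1 and 15 (12.4, 1.90 to 521). The sequences of SAMD9 and SAMD9L are related, so reads may be shared between them. XAF1, a pro-apoptotic factor, had 42 and 60 reads (1.18, 0.782 to 1.79). IFI35 was 3.27-fold higher (2.40 and 7.85 CPM, interval 2.38 to 4.57), and IFI6, a mitochondrial anti-apoptotic protein, 2.33-fold higher (7.30 and 17.0 CPM, 1.93 to 2.83). IFI16, a nuclear DNA sensor, had 2 and 26 reads, a ratio of 10.7 (2.69 to 93.3).

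Interferon transcripts themselves were close to undetected. Of the 13 interferon genes on the list, 10 had no read in either library, among them IFNB1, and none exceeded 2 reads in a library. The floor that a count of 0 allows is 3 reads, or 0.147 CPM in Con and 0.121 CPM in ENZR. The reads seen fell on IFNL1 (0 and 1), IFNL2 (0 and 2) and IFNL3 (1 and 2). The receptor chains were expressed, with IFNAR1 at 77.4 and 84.6 CPM (1.09-fold) and IFNAR2 at 14.4 and 20.7 CPM (1.44-fold, 1.25 to 1.67). None of the 6 receptor genes passed 2-fold (6.69% higher and 4.64% lower over all genes).

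Of the JAK-STAT list, 14 of 16 genes passed the filter, 1 was past 2-fold upward, near the background of 6.69%, and 0 downward, and the median log2 ratio was 0.07. JAK1, a kinase needed by all interferon receptors, had 100 reads in Con and 177 in ENZR, or 4.90 and 7.16 CPM (1.46-fold, 1.14 to 1.89). JAK2 was 1.73-fold higher (12.4 and 21.5 CPM), while TYK2 had a ratio of 0.868 (73.4 and 63.7 CPM). The gene past 2-fold was PTPN6, a phosphatase that restrains JAK signalling, at 27.5 and 61.3 CPM (2.23-fold, 2.02 to 2.46).

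The adaptors and kinases between sensor and transcription factor had a median log2 ratio of 0.12 over 17 genes, with 1 past 2-fold, again near the background of 6.69%. That gene was IKBKE, a kinase that phosphorylates IRF3 and IRF7, at 6.17 and 16.1 CPM (2.60-fold, 2.12 to 3.20). Of the DNA sensing list, 3 of 8 genes passed the filter, with 1 past 2-fold downward (4.64% over all genes) and 0 upward. The gene past 2-fold was ENPP1, which degrades the messenger cGAMP, 3.08-fold lower (32.8 and 10.6 CPM, 2.67 to 3.57). DDX41 and TREX1, which also passed the filter, were 1.28-fold and 1.69-fold lower. MB21D1, which encodes cGAS, had 0 and 1 read, and TMEM173, which encodes STING, had 5 and 34 reads, a ratio of 5.61 (2.18 to 18.4) at a mean under 1 CPM.

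Other interferon-stimulated genes, a list with 44 genes in the table, had a median log2 ratio of 0.59 over the 35 that passed the filter. Of these 35, 12 were higher by 2-fold or more (background 6.69%) and 2 were lower by as much (4.64%). Among these 12, UBE2L6, PLSCR1, NMI, TRIM34, UBA7 and TRANK1 had under 1 CPM in Con and passed the filter through their ENZR value alone. On the log2 scale with 1 CPM added, which gives less weight to low levels than the plain folds printed here, the largest differences after UBE2L6 were in TRIM38, a ubiquitin ligase that limits RNA sensing, which was 7.87-fold lower (338 and 52 reads, 5.87 to 10.8), PLSCR1, a phospholipid scramblase, with 4 and 123 reads (25.4, 9.67 to 94.6), and APOBEC3F, a cytidine deaminase that restricts retroviruses, at 3.09 and 16.9 CPM (5.46-fold, 4.18 to 7.24). APOBEC3F has close paralogs, so its value is uncertain.

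Genes more typical of interferon-gamma had 9 of 15 past the filter, with 4 past 2-fold upward (6.69% over all genes), 0 past it downward (4.64%) and a median of 0.48. Among these 4, IFI30, GBP1 and CD274 had under 1 CPM in Con and passed the filter through their ENZR value alone. IFI30, a lysosomal thiol reductase, had 7 Con reads and 487 ENZR reads, a ratio of 57.4 (27.7 to 144). GBP1, a guanylate-binding GTPase, had 0 Con reads and 55 ENZR reads, at least 15.1-fold higher against the floor of 3 reads (lower limit of the counting interval 11.9), and GBP2 had 21 and 88 reads (3.46, 2.13 to 5.86). CD274, which encodes PD-L1, had 10 and 49 reads (4.04, 2.02 to 8.96). The chemokines CXCL10 and CXCL11, named after their values were seen, had no read in either library.

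**Figure D5:**
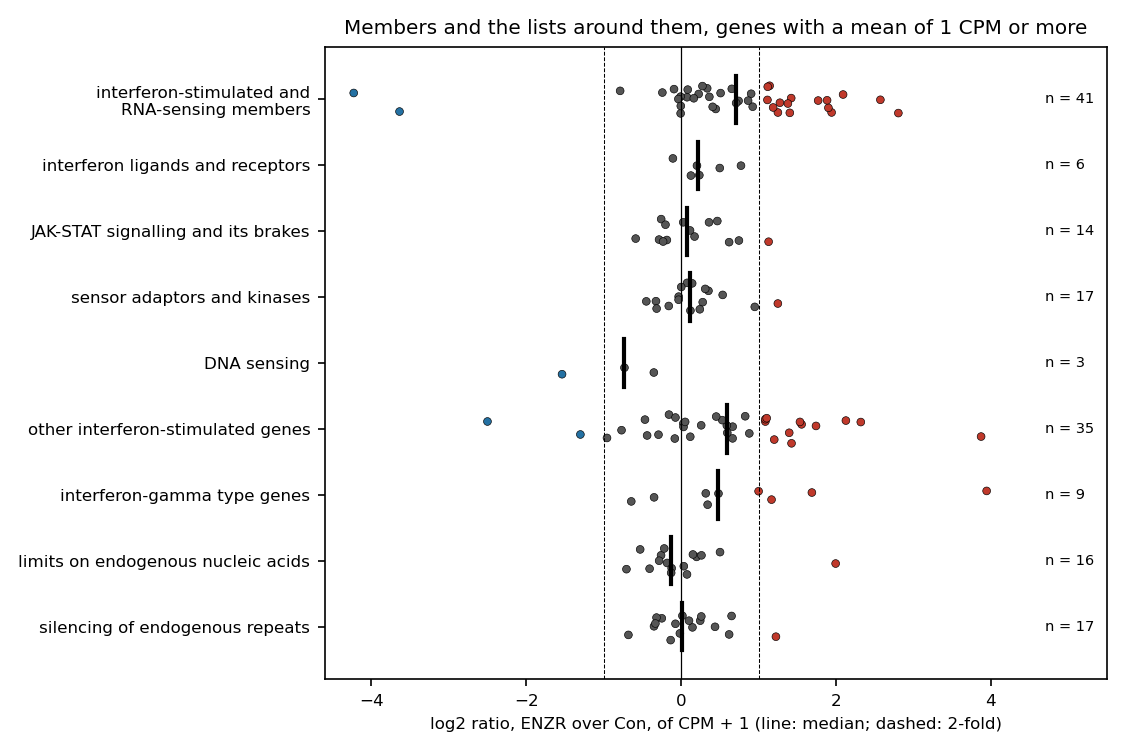
Points are the log2 ratios of ENZR over Con (CPM plus 1) of genes that passed the filter, by list, with the median as a thick line and 2-fold as dashed lines. Members (median 0.71) and other interferon-stimulated genes (0.59) carry the most red points, 16 of 41 and 12 of 35. The shorter interferon-gamma type list has 4 of 9, a larger share, while the JAK-STAT (0.07) and adaptor lists (0.12) cluster near 0. Some red points are genes that passed the filter through their ENZR value alone.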

How the data were processed

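RNA was measured in 1 library of C4-2B Con and 1 of C4-2B ENZR, grouped by the labels. Tools listed without roles in the submitters' processing notes were edgeR, RSEM 1.2.15 and Bowtie2 2.1.0, with build hg19. Neither annotation nor strand setting was given in the sources used here. The authors deposited a signal per gene, TMM-normalized CPM per the file headers. Each value was within 0.01 reads of a whole multiple of its column's smallest value (0.0490 CPM in Con, 0.0404 CPM in ENZR) for 100% of genes, so whole reads were recovered. A count test needs replicates and was not run. The table held 0 further sample columns.

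Log2 ratios used a pseudocount of 1 CPM and a minimum mean of 1 CPM (pandas 2.3.3, scipy 1.17.1). The calculation was tested on simulated data. The members and lists were chosen with earlier results of these data known. All members were named, and from each other list the genes past 2-fold, up to the 4 with the largest absolute log2 ratio, besides set genes of interferon signalling, some of which are not reported here. Gene symbols were matched to RefSeq (GRCh38.p14) for promoters and neighbours, 50 of 50 members for the latter. Other pseudocounts, filters and scalings were tried.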

Additional observations from a re-analysis of the deposited data

How the results depend on the processing

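With no replicate, nothing below measures variation between cultures, and low reads in Con limit the folds of OASL, SAMD9, TLR3, IFIT2 and OAS1. No paired analysis was possible because each line has 1 library. The median log2 ratio of the members stayed between 0.39 and 0.81 over all 8 settings, and the count of members at least 2-fold lower was 2 in each. The count of higher members, 16, became 6 with a pseudocount of 5 CPM (IFIH1, PARP14, IFIT1, IRF7, DTX3L and IFITM3 still passed) and 10 with a minimum mean of 5 CPM. Over all genes, a pseudocount of 5 CPM gave 447 higher and 371 lower, and a minimum mean of 5 CPM gave 577 higher. The median of all genes moved from -0.01 to 0.055 with upper quartile scaling, 0.10 after undoing TMM, 0.10 without the 10 most abundant genes, 0.016 without a filter and -0.023 with a minimum mean of 5 CPM. Among lists, 5 CPM as the pseudocount left 4 other interferon-stimulated genes, 1 interferon-gamma type gene, 0 adaptors and 0 genes of the silencing list at least 2-fold higher. A minimum mean of 5 CPM left 7 and 1 of the first and second of these lists, and the 3 scalings other than centring on the median gave 2 adaptors. The DNA sensing median became 0.057 without a filter. The share of all promoters with an ISRE core was 3.71% in the 250 bases before the start alone, where that of members was 59.0%. Fewer genes or a narrower window enter by construction under the filters and the window, and for the other settings the cause was not tested. Of 246 values of single members, 214 stayed within the counting interval, 32 moved outside it and 0 called members changed sign.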

Other observations

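The list for silencing of endogenous repeats held 17 genes, among them the DNA demethylases TET1, TET2 and TET3, which remove DNA methylation. Of the 17, 1 was past 2-fold upward (6.69% over all genes) and 0 were past it downward. That gene was TET1, with 101 Con reads and 319 ENZR reads (2.61-fold, counting interval 2.08 to 3.29), so it is not a silencing gene itself. The median of the silencing list was 0.02.

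Many members are arranged in gene clusters, with 12 adjacent pairs that involve 22 of the 50 members. Adjacent members did not always match: OAS3 was 1.33-fold higher beside OAS1 at 4.26-fold, a ratio that rested on 12 Con reads. SAMD9 and SAMD9L both had more reads in ENZR, but SAMD9L, with 1 and 15 reads, was below the filter. SAMD9 passed it through its ENZR value alone, and reads may be shared between these paralogs. Around the 16 members at least 2-fold higher, 30 protein-coding neighbours within 2 places passed the filter, of which 4 were past 2-fold upward (6.69% over all genes) and 1 downward (4.64%), with a median log2 ratio of 0.20. Around the 23 members between the limits, 1 of 50 neighbours was past 2-fold upward and 1 downward, and around the 2 lower members 0 of 4 and 1 of 4. The highest of these neighbours was GCG, which encodes glucagon and lies 2 places from IFIH1, with 3 Con reads and 387 ENZR reads, a ratio of 106. GCG, 1 of the 4 past 2-fold upward, had under 1 CPM in Con and passed the filter through its ENZR value alone. EPPK1, which encodes epiplakin and lies 2 places from PARP10, was 5.26-fold lower (91.7 and 17.4 CPM). IFI27L2, beside IFI27, had 6 reads in Con and 192 in ENZR. PTGFR, beside IFI44L, had 1710 and 2 reads. IFI27 and IFI44L were below the filter, so IFI27L2 and PTGFR are outside the counts of neighbours given above. All neighbours named here were picked after their values were seen.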
